A study of Mus musculus with 12 samples.

Results

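Astrocyte identity genes are the genes by which astrocytes are usually recognised, and 10 of them were followed here through all 12 RNA-seq libraries: Gfap, S100b, Slc1a2, Slc1a3, Aqp4, Aldh1l1, Glul, Gja1, Sox9 and Nfia. They were picked by gene symbol, and each symbol matched 1 row of the 55401 genes in both deposited tables. All 10 had a mean of at least 0.1 FPKM (a level that corrects the fragments of a gene for its length and for library size) in each set of libraries fitted, so none was lost to the filter on low values.

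The libraries came from adult neural stem/progenitor cells (aNSPCs) isolated from the forebrain of C57BL/6 mice aged 8 to 10 weeks and grown in culture with EGF, FGF-2 and B27. The 4 groups of 3 libraries were Ctrl and NAD+ cells under proliferating conditions, and Ctrl and NAD+ cells under differentiation conditions, where 1 µM retinoic acid and 5 µM forskolin were given. NAD+ was given at 1 mM, and the groups were read from the sample titles, because the treatment field of the labels reads untreated for all 12 samples. The cells are a mixed culture that was not sorted, and the study calls the 3 libraries of a group biological repeats. Whether these were separate mice or separate cultures of the same cells is not given, so the p-values cover the spread between these samples.

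Astrocytes take up the glutamate that neurons release, turn it into glutamine, buffer potassium and water, and are joined to each other by gap junctions. Their genes fall into those roles: an intermediate filament (Gfap), glutamate uptake and conversion (Slc1a2, Slc1a3, Glul), water and coupling (Aqp4, Gja1), widely used cytoplasmic markers (S100b, Aldh1l1) and the transcription factors of gliogenesis (Sox9, Nfia). Several of them, among them Gfap, Slc1a3, Sox9 and Glul, are also used by neural stem cells, so their RNA is not proof of a mature astrocyte. In bulk RNA of such a culture, more astrocytes and more RNA per astrocyte cannot be told apart.

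Promoter sequence was read from RefSeq (GRCm38.p6, the build of mm10), whose table held 8 of the 10 members; Aqp4 and Sox9 are named only. Both agents added for differentiation act through known sequence elements, since forskolin raises cyclic AMP, which acts on CRE sites, and retinoic acid acts on nuclear receptors that bind AGGTCA half-sites. The 250 bases before the RefSeq start of Gfap and of Slc1a3 are shown as examples of genes that were higher in the differentiated cells and higher again with NAD+. Slc1a2 had this pattern too, and its window is not shown. The Gfap window lies inside the longer span that GENCODE M21 gives this gene, since the annotations place its start differently. Capitals mark matches to the CRE, STAT, NFI half-site, AGGTCA and TATAAA motifs on either strand.
Gfap, chr11:102897201-102897450, minus strand: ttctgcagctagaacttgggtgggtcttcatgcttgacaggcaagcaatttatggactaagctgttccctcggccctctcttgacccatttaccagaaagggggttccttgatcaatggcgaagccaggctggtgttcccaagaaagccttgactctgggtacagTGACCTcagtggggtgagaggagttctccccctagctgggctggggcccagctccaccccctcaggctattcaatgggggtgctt
Slc1a3, chr15:8710808-8711057, minus strand: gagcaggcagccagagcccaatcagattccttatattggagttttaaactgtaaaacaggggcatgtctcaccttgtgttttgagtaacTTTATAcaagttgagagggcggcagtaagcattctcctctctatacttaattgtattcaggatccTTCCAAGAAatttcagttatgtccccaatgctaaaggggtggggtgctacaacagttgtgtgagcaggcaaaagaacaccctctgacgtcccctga

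The Gfap window held 1 AGGTCA half-site, on the opposite strand at bases 85 to 80 before the start, a motif found in 3 of the 8 member windows (Gfap, Glul and Aldh1l1) and in 14.0% of 32851 RefSeq promoters of this length. In Slc1a3 a STAT motif (TTCNNNGAA) lay at bases 96 to 88, the only one among the 8 members, against 7.02% of all promoters. A TATAAA motif lay at bases 161 to 156 of Slc1a3, and 12.4% of all promoters hold one. The full CRE (TGACGTCA, present in 1.55% of promoters) was in none of the 8 windows, whereas its first 5 letters (TGACG, a part of the full site and not capitalised above) were in Gja1 and Slc1a3 and in 17.8% of all promoters. The NFI half-site (TTGGC) was in Glul, Slc1a2 and S100b against 41.5% of promoters, and the full palindromic NFI site was in none of the 8, against 0.0365%. These matches describe letters in these windows and no binding.

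Summed FPKM over all genes ran from 308828 to 363330 per library, and the depth behind the values is unknown. Both proliferating libraries numbered 1 stood apart from their replicates in some astrocyte genes. Over the mean of libraries 2 and 3, library 1 was 2.48 times (Ctrl) and 3.80 times (NAD+) as high in Aqp4, 2.43 and 2.09 times in Gja1 and 1.75 and 1.81 times in Aldh1l1. More than 1.2 times the level of the other libraries was seen for 3 of 10 members in Ctrl and 7 of 10 in NAD+, and in 30 of 69 and 34 of 70 other astrocyte genes. Lower by more than the same factor were 0 and 0 members, and 12 of 69 and 8 of 70 other astrocyte genes. The share over all genes was not counted, so whether this is particular to astrocyte genes is not known. Results that rest on these libraries are given below with and without them. They were singled out after these values were seen, so fits without them are no independent support for the same genes.

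**Figure D1:**
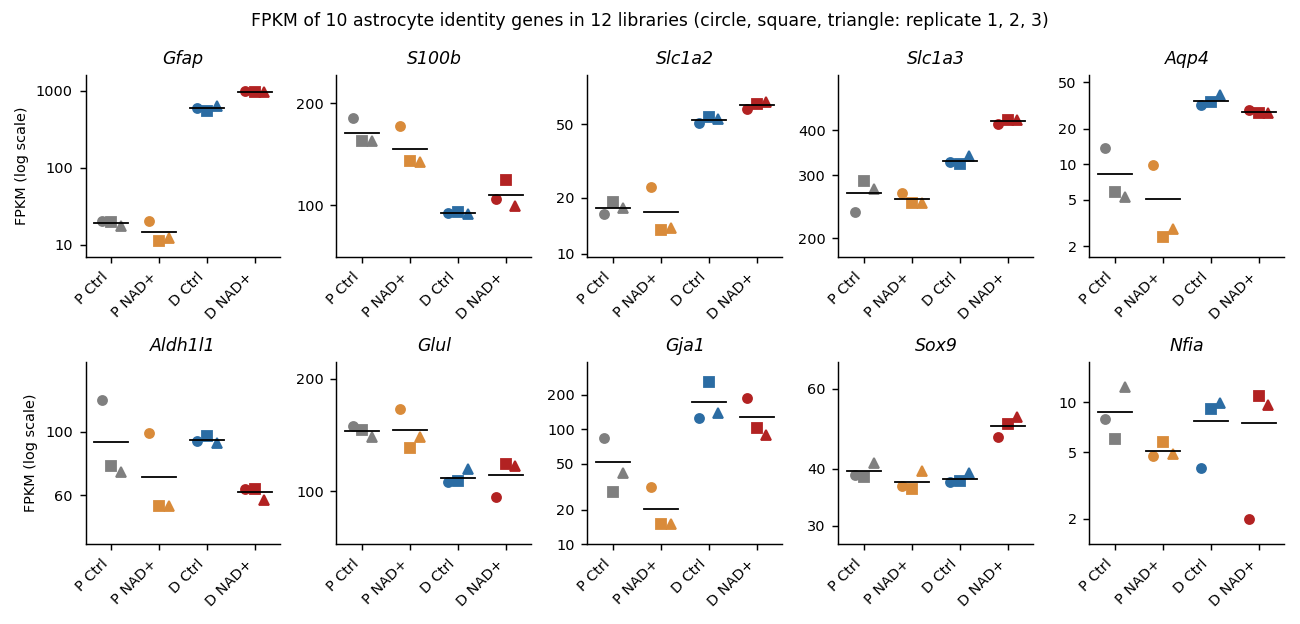
FPKM (log scale) of each astrocyte identity gene in every library, with P for proliferating and D for differentiation conditions, 1 point per library and a line at the group mean (n = 3). Gfap, Slc1a2, Slc1a3, Aqp4 and Gja1 sit higher in both D groups than in the P group of the same treatment, and the proliferating circles (replicate 1) of Aqp4, Aldh1l1 and Gja1 lie above the squares and triangles.

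The first comparison asked how the identity genes differed between differentiation and proliferating conditions. Among Ctrl cells 5 members rose (Gfap, Slc1a2, Slc1a3, Aqp4 and Gja1), 2 fell (S100b and Glul) and 3 did not pass the test (limma, adjusted p under 0.05). Among NAD+ cells the same 5 and Sox9 rose, the same 2 fell, and Aldh1l1 and Nfia did not pass. Of the 19498 genes tested, 56.7% were called among Ctrl cells (25.0% higher, 31.6% lower) and 58.4% among NAD+ cells (20.8% higher, 37.6% lower). To be called was thus common, and the number of members called in either direction is near that background. By direction, the 5 and 6 of 10 members that rose are a larger share than among all genes. The 2 of 10 that fell are a smaller share. Expressed as the summed FPKM of the 10 genes, libraries held 776.5 to 878.1 and 655.1 to 830.4 (proliferating, Ctrl and NAD+), and 1468 to 1562 and 1912 to 2005 (differentiation, Ctrl and NAD+).

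FPKM is scaled within each library only, and another scaling between libraries moved small differences. Median-ratio scaling over the 12 libraries moved the median log2 fold change of all tested genes from -0.06 to 0.16 among Ctrl cells and from -0.20 to 0.16 among NAD+ cells, and the median of the members from 0.19 to 0.43 and from 0.57 to 0.97. Without the differentiated NAD+ library 1 the last median was 0.87 as deposited. Counts over all genes were 4884 higher and 6164 lower among Ctrl cells as deposited and 6496 and 4609 with median-ratio scaling; among NAD+ cells they were 4050 and 7336, and 6370 and 4682. With quantile scaling 5229 were higher and 5439 lower among Ctrl cells, and 5192 and 5533 among NAD+ cells. The rises of Gfap, Slc1a2, Slc1a3, Aqp4 and Gja1 held in both comparisons under median-ratio and quantile scaling. The falls did not: Glul was at log2 fold changes of -0.17 (Ctrl) and 0.00 (NAD+) under median-ratio scaling and 0.13 and 0.09 under quantile scaling, none of them called. S100b stayed lower among Ctrl cells under median-ratio scaling (-0.54, adjusted p = 0.00238) and was not called there under quantile scaling (-0.24, adjusted p = 0.0681), nor among NAD+ cells under either (-0.05 and 0.03). With these scalings the members called were 6 higher and 1 lower (median-ratio) and 7 higher and 0 lower (quantile) among Ctrl cells, and 6 higher and 0 lower under both among NAD+ cells.

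**Figure D2:**
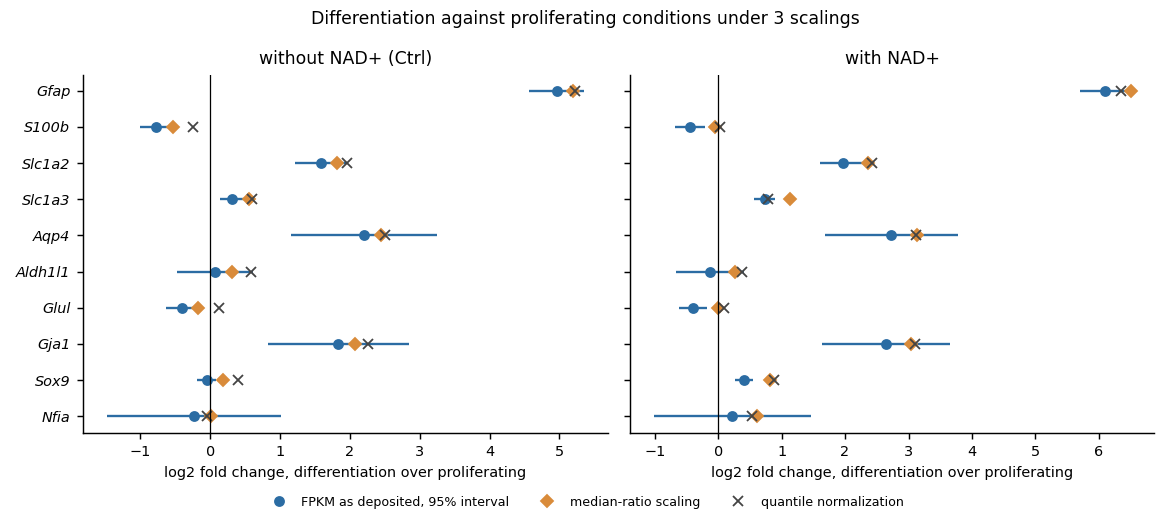
log2 fold change of FPKM + 0.1, differentiation over proliferating conditions, for the 10 identity genes without NAD+ (left) and with NAD+ (right); circles and bars are the fit of the deposited FPKM with its 95% interval, diamonds and crosses 2 other scalings. Gfap lies near 5 and 6, and S100b and Glul move towards 0 or past it under the other scalings.

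Gfap (ENSMUSG00000020932, mm10 chr11:102887336-102900912, minus strand) encodes the intermediate filament protein by which astrocytes are most often stained. Among Ctrl cells it was at 20.17, 19.49 and 17.49 FPKM under proliferating conditions and at 597.66, 545.96 and 642.12 FPKM under differentiation conditions. With NAD+ it was at 20.50, 11.27 and 12.17 FPKM and at 998.61, 965.04 and 967.03 FPKM. Every differentiated library was far above every proliferating one, and the NAD+ and Ctrl libraries overlapped only under proliferating conditions. The mean rose 31.2-fold among Ctrl cells (log2 fold change 4.96, SE 0.18, adjusted p = 6.82e-09) and 66.7-fold among NAD+ cells (6.10, SE 0.18, adjusted p = 1.56e-09). By mean level Gfap moved from rank 2562 of all genes in proliferating Ctrl cells to rank 37 in differentiated Ctrl cells and rank 26 in differentiated NAD+ cells. It made up 2.25% to 2.49% of the summed FPKM of the 10 members in proliferating Ctrl libraries, 35.0% to 41.1% in differentiated Ctrl libraries and 49.5% to 50.6% in differentiated NAD+ libraries. The genes with the profile most like that of Gfap over the 12 libraries, among 12928 genes with a mean of at least 1 FPKM, were Gpr179, Slc22a4 and Itgb4, at root mean square distances of 0.256, 0.348 and 0.448 on the centred log2 scale.

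Slc1a2 (ENSMUSG00000005089, chr2:102658659-102790784, plus strand) encodes the main glutamate transporter of mature astrocytes. It was at 16.43, 18.97 and 17.57 FPKM in proliferating and 51.11, 54.47 and 53.47 FPKM in differentiated Ctrl libraries, and at 23.04, 13.47 and 13.73 FPKM and 60.45, 64.16 and 65.98 FPKM with NAD+. No differentiated library fell within the range of the proliferating ones, and the level rose 3.0-fold among Ctrl cells (log2 fold change 1.58, SE 0.17, adjusted p = 1.24e-05) and 3.79-fold among NAD+ cells (1.96, SE 0.17, adjusted p = 1.94e-06). Slc1a3 (ENSMUSG00000005360, chr15:8634124-8710764, minus strand) encodes the other astrocyte glutamate transporter, which stem cells also express, and was already high in proliferating cells. Ctrl libraries held 236.86, 288.26 and 274.69 FPKM under proliferating and 325.82, 323.15 and 339.85 FPKM under differentiation conditions. NAD+ libraries held 268.14, 251.05 and 250.02 FPKM, and 416.08, 428.40 and 428.39 FPKM. Its rise was smaller, at 1.24-fold among Ctrl cells (log2 fold change 0.31, SE 0.08, adjusted p = 0.00514) and 1.65-fold among NAD+ cells (0.73, SE 0.08, adjusted p = 1.07e-05), again with no overlap between conditions.

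Glul (ENSMUSG00000026473, chr1:153899944-153909723, plus strand) encodes glutamine synthetase, which turns the glutamate taken up into glutamine. Proliferating libraries held 149.27, 146.06 and 139.58 FPKM (Ctrl) and 166.32, 130.52 and 139.56 FPKM (NAD+). Differentiated libraries held 105.59, 106.25 and 114.68 FPKM (Ctrl) and 96.24, 118.47 and 116.64 FPKM (NAD+). All differentiated libraries were below all proliferating ones as deposited, by 1.33-fold among Ctrl cells (adjusted p = 0.00492) and 1.32-fold among NAD+ cells (adjusted p = 0.00602), the difference whose sign depended on the scaling. A microRNA gene, Mir8114, overlaps the start of Glul on the same strand and was listed at 0.08 to 192.47 FPKM. How reads in this overlap were assigned is not given, and any effect on Glul was not tested.

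Aqp4 (ENSMUSG00000024411, chr18:15389496-15410982, minus strand) encodes the water channel of astrocyte endfeet. Its proliferating libraries held 13.68, 5.82 and 5.23 FPKM (Ctrl) and 9.95, 2.42 and 2.82 FPKM (NAD+), with library 1 the highest in each group. Under differentiation conditions it was at 31.75, 33.66 and 38.87 FPKM (Ctrl) and 28.80, 27.46 and 27.25 FPKM (NAD+). The rise was 4.22-fold among Ctrl cells (log2 fold change 2.20, SE 0.47, adjusted p = 0.00217) and 5.50-fold among NAD+ cells (2.73, SE 0.47, adjusted p = 0.000448). An antisense gene, AC133525.2, overlaps it and was at 0.12 to 4.69 FPKM. Without both proliferating libraries numbered 1, the log2 fold changes of Aqp4 were 2.63 (Ctrl) and 3.36 (NAD+). These libraries were set aside in part for their high Aqp4, so the choice itself enlarges the rise.

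Gja1 (ENSMUSG00000050953, chr10:56377330-56402513, plus strand) encodes the main connexin of astrocyte gap junctions. It was at 84.78, 28.22 and 41.49 FPKM in proliferating and 126.29, 257.85 and 138.48 FPKM in differentiated Ctrl libraries, and at 31.23, 15.01 and 14.91 FPKM and 188.68, 103.55 and 88.30 FPKM with NAD+. Replicates varied widely, the highest library being 2.04 to 3.0 times the lowest in each of the 4 groups, and differentiated libraries still lay above all proliferating ones of their treatment. The level rose 3.38-fold among Ctrl cells (log2 fold change 1.83, SE 0.46, adjusted p = 0.0052) and 6.22-fold among NAD+ cells (2.64, SE 0.46, adjusted p = 0.000437). Without both proliferating libraries numbered 1 the log2 fold changes of Gja1 were 2.27 (Ctrl) and 2.99 (NAD+). These libraries were set aside in part for their high Gja1, so the choice itself enlarges the rise.

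S100b (ENSMUSG00000033208, chr10:76253853-76261159, plus strand) encodes a calcium-binding protein. It was at 180.75, 154.80 and 154.91 FPKM in proliferating and 94.96, 95.21 and 94.27 FPKM in differentiated Ctrl libraries, so it ran opposite to Gfap as deposited. NAD+ libraries held 170.62, 134.73 and 134.40 FPKM, and 103.97, 118.32 and 99.34 FPKM. The level fell 1.72-fold among Ctrl cells (log2 fold change -0.78, SE 0.11, adjusted p = 7.94e-05) and 1.37-fold among NAD+ cells (-0.45, SE 0.11, adjusted p = 0.00358). The end of the gene overlaps Dip2a on the opposite strand, which was at 6.76 to 10.0 FPKM, and the counting is not stated to use strand.

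Aldh1l1 (ENSMUSG00000030088, chr6:90486427-90600203, plus strand) encodes an enzyme of folate metabolism and marks nearly all astrocytes in the brain. It was at 129.30, 75.60 and 72.04 FPKM in proliferating and 93.05, 96.57 and 90.97 FPKM in differentiated Ctrl libraries, where the single high library lies above and the other two below all differentiated ones. With NAD+ it was at 99.21, 54.79 and 55.08 FPKM under proliferating and 63.27, 63.07 and 57.69 FPKM under differentiation conditions. Neither difference was called (log2 fold change 0.07, 95% interval -0.47 to 0.61 among Ctrl cells, and -0.13, interval -0.67 to 0.41, among NAD+ cells). Under quantile scaling the Ctrl difference was 0.59 and called (adjusted p = 0.047), and the NAD+ difference was 0.38 and not called (adjusted p = 0.184). Without both proliferating libraries numbered 1 the log2 fold changes were 0.34 (Ctrl) and 0.16 (NAD+). These libraries were set aside in part for their high Aldh1l1, so the choice itself favours a rise and is no test of it.

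Sox9 (ENSMUSG00000000567, chr11:112782224-112787760, plus strand) encodes a transcription factor that starts gliogenesis and stays on in astrocytes. Its level was steady in 3 of the groups, at 38.85, 38.40 and 41.27 FPKM (proliferating Ctrl), 36.61, 36.10 and 39.66 FPKM (proliferating NAD+) and 37.36, 37.68 and 39.14 FPKM (differentiated Ctrl), and stood at 46.98, 50.27 and 52.01 FPKM in differentiated NAD+ libraries. The difference between conditions was 0.41 on the log2 scale among NAD+ cells (SE 0.06, adjusted p = 0.000172) and -0.05 among Ctrl cells (SE 0.06, adjusted p = 0.489), the latter becoming 0.19 (adjusted p = 0.0245) and 0.40 (adjusted p = 0.000383) under median-ratio and quantile scaling. Nfia (ENSMUSG00000028565, chr4:97772734-98118874, plus strand) encodes a nuclear factor of the gliogenic switch. It was the lowest member in 2 of the 4 groups by mean FPKM, at 7.97, 5.99 and 12.27 FPKM (proliferating Ctrl), 4.73, 5.74 and 4.91 FPKM (proliferating NAD+), 4.01, 9.14 and 9.85 FPKM (differentiated Ctrl) and 2.00, 10.94 and 9.60 FPKM (differentiated NAD+). Its groups overlapped between conditions, and the intervals of the difference were wide, at -1.48 to 1.02 among Ctrl cells and -1.02 to 1.47 among NAD+ cells on the log2 scale. Without the differentiated NAD+ library 1 the latter difference was 0.99 and called (adjusted p = 0.0467). The start of Nfia overlaps E130114P18Rik on the opposite strand, which had a like level of 4.73 to 13.79 FPKM.

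Other gene lists moved between the conditions as well. Of 9 genes of dividing cells all 9 fell in both comparisons, with summed levels of 257.5 to 296.0 FPKM in proliferating and 22.07 to 23.65 FPKM in differentiated Ctrl libraries, and 265.1 to 345.5 and 24.01 to 25.76 FPKM with NAD+. Markers of maturing and myelinating oligodendrocytes rose in 7 of 8 tested genes, and their sum went from 51.90 to 64.27 FPKM in proliferating Ctrl libraries to 220.8 to 272.4 FPKM in differentiated ones. Among Ctrl cells ependymal markers rose in 4 of 4 tested genes, progenitor markers of the oligodendrocyte lineage rose in 3 and fell in 2 of 7, and neuronal markers rose in 3 and fell in 3 of 11. Defining markers of microglia (Aif1, Cx3cr1, Tmem119) and of endothelial cells (Pecam1, Cldn5, Cdh5) were at 0.09 FPKM or less in all libraries. Of the whole lists, 1 of 9 microglial genes passed the filter over 12 libraries and was called higher in both comparisons, and the sum of the list was 18.16 to 31.15 FPKM. Of 8 endothelial and mural genes 5 were tested, 2 rose and 2 fell in both comparisons, and their sum was 0.62 to 2.09 FPKM. The part of dividing and oligodendrocyte-lineage cells in the differences of the identity genes was not tested.

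The main question of the study was what NAD+ exposure did within a condition. Under differentiation conditions 5 of the 10 identity genes changed with NAD+: Gfap, Slc1a3, Sox9 and Slc1a2 rose, Aldh1l1 fell, and S100b, Aqp4, Glul, Gja1 and Nfia did not pass the test. Among all 19611 genes tested in these 6 libraries 6.92% were called, 2.27% higher (445 genes) and 4.65% lower (912 genes), and with median-ratio scaling 598 genes were higher and 580 lower. The median log2 fold change was 0.09 over the members and -0.08 over all tested genes, and that of the members ranged from 0.03 without NAD+ library 2 to 0.24 without NAD+ library 1. The 4 rises and the fall were called under median-ratio and quantile scaling alike, while Slc1a2 was not called with no filter on low values (adjusted p = 0.055) or with no moderation of the variance (adjusted p = 0.078).

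**Figure D3:**
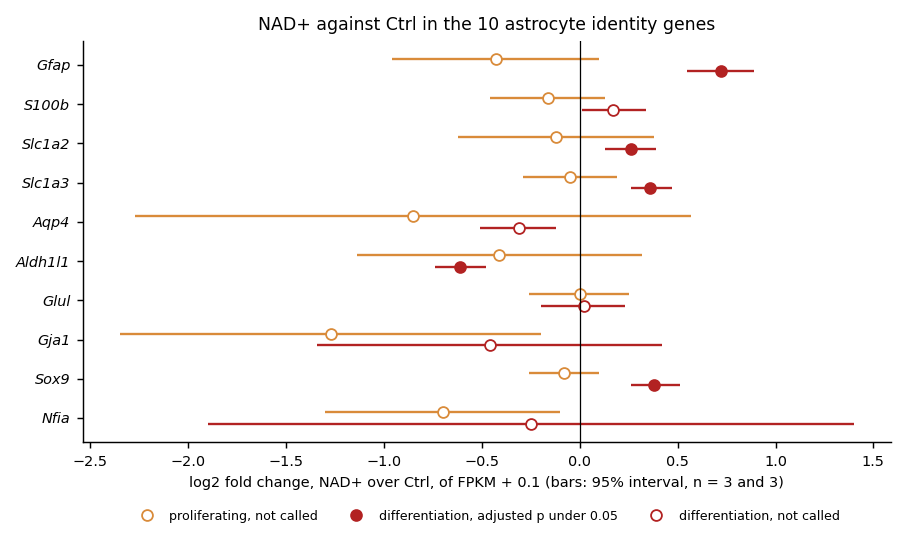
log2 fold change of NAD+ over Ctrl for each identity gene with its 95% interval, under proliferating (orange) and differentiation (red) conditions; filled points have an adjusted p under 0.05. Under differentiation conditions Gfap, Slc1a2, Slc1a3 and Sox9 lie to the right and Aldh1l1 to the left, and no orange point is filled.

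Gfap carried the greatest rise. It was at 595.2 ± 48.1 FPKM in Ctrl and 976.9 ± 18.8 FPKM in NAD+ cells (SD, n = 3), a 1.64-fold difference (log2 fold change 0.72, SE 0.07, adjusted p = 0.00613). The lowest NAD+ library (965.04 FPKM) was well above the highest Ctrl library (642.12 FPKM). Both glutamate transporters were higher as well, without overlap of the groups: Slc1a3 went from 329.6 ± 8.97 to 424.3 ± 7.11 FPKM, 1.29-fold (log2 fold change 0.36, SE 0.04, adjusted p = 0.0103). Slc1a2 went from 53.02 ± 1.73 to 63.53 ± 2.82 FPKM, 1.2-fold (0.26, SE 0.05, adjusted p = 0.0366). Sox9 rose 1.31-fold, from 38.06 ± 0.949 to 49.75 ± 2.55 FPKM (0.38, SE 0.05, adjusted p = 0.014).

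Aldh1l1 went the other way, from 93.53 ± 2.83 to 61.34 ± 3.17 FPKM, 1.52-fold lower with NAD+ (log2 fold change -0.61, SE 0.05, adjusted p = 0.00494). Every NAD+ library was below every Ctrl library, so of the cytoplasmic markers this one did not share the direction of Gfap. Aqp4 had the same direction, at 34.76 ± 3.69 FPKM in Ctrl and 27.84 ± 0.841 FPKM in NAD+ cells, without overlap and short of the threshold (log2 fold change -0.31, 95% interval -0.51 to -0.12, adjusted p = 0.0733). S100b was at 94.81 ± 0.487 and 107.2 ± 9.9 FPKM, also without overlap and not called (0.17, interval 0.01 to 0.34, adjusted p = 0.196). Groups did not overlap for 7 members, 5 higher and 2 lower, against 9.68% higher and 21.1% lower among all tested genes. With 3 libraries a side the exact permutation test cannot give a two-sided p below 0.10, the value each of these 7 members has.

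For the remaining 3 members the groups overlapped. Glul was nearly level, at 108.8 ± 5.07 FPKM in Ctrl and 110.4 ± 12.3 FPKM in NAD+ cells (log2 fold change 0.02, 95% interval -0.20 to 0.23). The intervals of Gja1 (-0.46, from -1.34 to 0.42) and Nfia (-0.25, from -1.90 to 1.40) leave room for changes of more than 2-fold, since single libraries stood apart in both: 257.85 FPKM of Gja1 in Ctrl library 2, and 2.00 FPKM of Nfia in NAD+ library 1. Without that NAD+ library the Nfia value turned to 0.52 and was not called. By the rule the study used for differentially expressed genes (unadjusted p under 0.05 and more than 2-fold), 0 members were called, against 4.06% of all genes.

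The called members differed in whether their calls held with 1 library left out. Gfap (log2 fold change 0.66 to 0.77) and Aldh1l1 (-0.63 to -0.57) kept their calls with any 1 library left out. Slc1a2 lost its call with each of the 6 left out in turn (adjusted p 0.0523 to 0.124), Slc1a3 without Ctrl library 1 (adjusted p = 0.0552) and Sox9 without Ctrl library 1 (adjusted p = 0.0635) or 2 (adjusted p = 0.0569), so 1 member was called higher without Ctrl library 1 and 2 without Ctrl library 2. The log2 fold changes of these 3 genes stayed at 0.23 to 0.30 (Slc1a2), 0.35 to 0.39 (Slc1a3) and 0.35 to 0.43 (Sox9). Calls over all genes fell as well, from 6.92% to 1.68% without Ctrl library 1 and 2.14% without Ctrl library 2. With any 1 library left out they were at most 3.66%.

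Under proliferating conditions no identity gene was called with NAD+ by limma, and 2 of 10 (Gja1 and Nfia) had an unadjusted p under 0.05. Calls were rare there, at 27 of 18597 genes (0.145%), while 2864 genes had an unadjusted p under 0.05. Apart from Glul, at 0.00, all members had a log2 fold change below 0, with a median of -0.29 against 0.07 over all tested genes. That median was -0.16 without Ctrl library 1 and -0.51 without NAD+ library 1. The sign of the smallest ones was not firm, since Slc1a3 and Glul were above 0 under quantile scaling (0.08 and 0.09).

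Gja1 was at 51.50 ± 29.6 FPKM in Ctrl and 20.38 ± 9.39 FPKM in NAD+ cells (SD, n = 3), with a ratio of 2.53 and overlapping groups (log2 fold change -1.27, SE 0.45, adjusted p = 0.267). It was the only member past the rule of the study for differentially expressed genes, which called 3.01% of all genes, and 1.41% of all genes as lower. Without Ctrl library 1 the ratio was 1.71 and Gja1 did not pass this rule, nor did it without NAD+ library 2 or 3 (2.23 in both cases), while without both libraries numbered 1 it passed at 2.33. Nfia was at 8.743 ± 3.21 and 5.127 ± 0.539 FPKM, the only member whose groups did not overlap (-0.70, SE 0.25, adjusted p = 0.269; exact permutation p = 0.10), a pattern that 8.59% of all genes had in this direction. Gfap was at 19.05 ± 1.39 and 14.65 ± 5.09 FPKM (-0.43, 95% interval -0.96 to 0.10, adjusted p = 0.405). Its NAD+ library 1, at 20.50 FPKM, lay above all Ctrl libraries, and its NAD+ libraries 2 and 3 lay below all of them. Aqp4 (8.243 ± 4.72 and 5.063 ± 4.24 FPKM) and Aldh1l1 (92.31 ± 32.1 and 69.69 ± 25.6 FPKM) showed the same spread between library 1 and the others, with log2 fold changes of -0.85 (interval -2.27 to 0.57) and -0.41 (interval -1.14 to 0.32). Levels of S100b, Slc1a2, Slc1a3, Glul and Sox9 were within 1.12-fold between the groups.

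Leaving out both proliferating libraries numbered 1 brought 6 members to an adjusted p between 0.0566 and 0.0874, all of them lower with NAD+: Aldh1l1 (log2 fold change -0.43), Aqp4 (-1.05), Gfap (-0.65), Slc1a2 (-0.42), Gja1 (-1.19) and S100b (-0.20). None passed 0.05, and 1 gene of all tested (0.00539%) did. How many of all genes lay in the same range of adjusted p was not counted, so no excess among the members can be read from it. This setting was chosen after the data were seen.

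Whether the effect of NAD+ differed between the conditions was tested as an interaction over all 12 libraries. No member passed an adjusted p of 0.05 in limma, while 4 had an unadjusted p under 0.05 (Gfap, S100b, Slc1a3 and Sox9), and over all genes 91 passed (0.467%) and 3023 had such an unadjusted p. Values nearest to the threshold were those of Sox9 (difference of log2 fold changes 0.46, SE 0.09, adjusted p = 0.0571) and Gfap (1.14, SE 0.25, 95% interval 0.59 to 1.70, adjusted p = 0.0814). Slc1a3 followed (0.42, SE 0.11, adjusted p = 0.12), and the other members were at an adjusted p of 0.314 or more. A positive value means a higher ratio of NAD+ to Ctrl under differentiation than under proliferating conditions. The median difference was 0.43 over the members and -0.16 over all tested genes, the latter -0.01 with median-ratio scaling.

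This count depended on a few libraries. Without both proliferating libraries numbered 1, 5 members were called higher, Gfap (1.37, adjusted p = 0.00331), Slc1a2 (0.68, adjusted p = 0.00873), Slc1a3 (0.53, adjusted p = 0.00873), Aqp4 (0.74, adjusted p = 0.0426) and Sox9 (0.46, adjusted p = 0.0447), and 2.07% of all genes were called. That pair was singled out after the data were seen, in part by the Aqp4 values. Without the proliferating NAD+ library 1 alone, Gfap (1.41, adjusted p = 0.00311) and Slc1a2 (0.63, adjusted p = 0.0321) were called. Without the proliferating Ctrl library 1 alone, Slc1a3 (0.50, adjusted p = 0.0199) and Sox9 (0.47, adjusted p = 0.0437) were called. Calls over all genes were 0.583% and 0.998% in these fits, against 0.467% with all 12 libraries. The difference for Aldh1l1 was -0.20 with a wide interval (-0.96 to 0.56).

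A further 70 genes that astrocytes are known to use, grouped by role, showed where the identity genes stand among their kind. Under differentiation conditions 68 were tested for NAD+, of which 7 rose, 14 fell and 47 did not pass, and their median log2 fold change was -0.10 against -0.08 over all genes. With median-ratio scaling 9 rose and 9 fell. Vim, the filament protein that partners Gfap, rose (0.75, SE 0.12, adjusted p = 0.0202), 1 of 3 filament genes tested. Among 7 further genes of transmitter and glutamate handling 1 rose, the cystine-glutamate exchanger Slc7a11 (0.95, SE 0.12, adjusted p = 0.0106), and 4 fell, among them the GABA transporter Slc6a11 (-0.62, SE 0.07, adjusted p = 0.0078) and glutamate dehydrogenase Glud1 (-0.48, SE 0.05, adjusted p = 0.00723). Under median-ratio scaling 1 of the 7 rose and 3 fell, and under quantile scaling 1 and 2.

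Ion and water genes split 2 and 2 out of 10. The potassium channel Kcnj10 fell (log2 fold change -1.12, SE 0.09, adjusted p = 0.0041). Mlc1, a membrane protein of endfeet, rose (0.51, SE 0.05, adjusted p = 0.0062), and so did the sodium pump subunit Atp1b2 (0.24, SE 0.05, adjusted p = 0.0349). No junction gene of the 5 tested was called. Of 13 transcription factors Rorb rose (0.33), and Hes5 (-0.89) and Sox8 (-0.77) fell. Of 30 metabolic, secreted and receptor genes 2 rose, Clu (0.51) and Aldh1a1 (0.36), and 6 fell, led by Acsl6 (-0.62). This balance turned with the scaling: 4 rose and 2 fell under median-ratio scaling, and 3 and 2 under quantile scaling.

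**Figure D4:**
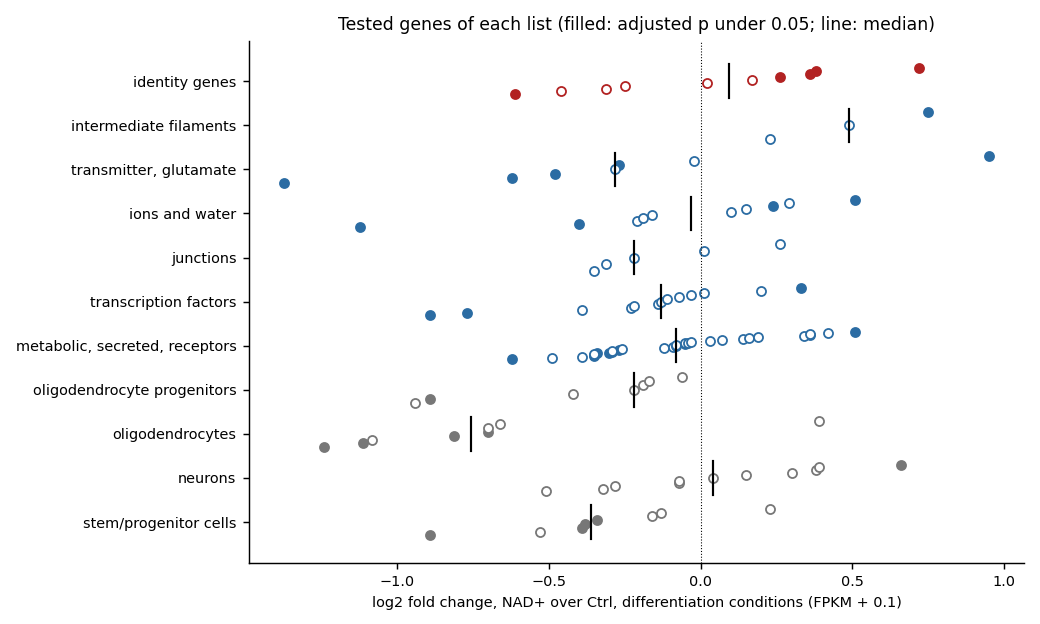
log2 fold change of NAD+ over Ctrl under differentiation conditions for every tested gene of the identity list (red), of other astrocyte lists (blue) and of lists for other cell types (grey); filled points have an adjusted p under 0.05 and the vertical line is the median of the list. The identity genes have a median of 0.09, and most oligodendrocyte genes lie to the left of 0.

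In proliferating cells none of the 67 tested genes of these roles was called with NAD+. Between conditions 33 of 68 rose and 15 fell among Ctrl cells, with 42 and 12 under median-ratio scaling, and 39 rose and 19 fell among NAD+ cells. The rises were led by Apoe (log2 fold change 3.67, SE 0.42), Ntsr2 (3.48, SE 0.26) and Agt (3.47, SE 0.30) among Ctrl cells, and the junction genes Gjb2 (2.56) and Cldn10 (2.27) rose beside Gja1. Nes, the filament protein of stem cells, fell (-2.75, SE 0.20, adjusted p = 9.46e-07). In the interaction Atp1b2 (0.62, SE 0.09, adjusted p = 0.0177) and Rorb (0.66, SE 0.12, adjusted p = 0.0495) were the only 2 of 68 called.

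Markers of the oligodendrocyte lineage moved with the NAD+ libraries of the differentiation table. Of 8 tested markers of maturing and myelinating oligodendrocytes 4 fell with NAD+, among them Myrf (log2 fold change -1.11), Ugt8a (-0.81) and Cnp (-0.70), and the sum over the list was 220.8 to 272.4 FPKM in Ctrl and 119.2 to 154.9 FPKM in NAD+ libraries. Among 7 progenitor markers Gpr17 fell (-0.89), and the sum was 797.7 to 859.0 FPKM in Ctrl and 539.4 to 587.7 FPKM in NAD+ libraries. Neural stem cell markers fell in 4 of 8 (among them Hes5, Pax6 and Msi1), with sums of 225.4 to 231.2 and 193.7 to 210.8 FPKM. Neuronal markers had sums of 39.83 to 44.48 and 40.07 to 40.50 FPKM, and 1 of 11, Gad1, rose (0.66). With the replicate block 0 of the 11 were called, while 5 of 8 markers of maturing oligodendrocytes and 2 of 7 progenitor markers fell. Genes of dividing cells were not called in 9 of 9. Under proliferating conditions no marker of the oligodendrocyte lineage was called with NAD+. The sums there were lower with NAD+ as well for progenitor markers, at 1328 to 1429 FPKM in Ctrl and 1057 to 1082 FPKM in NAD+ libraries. Markers of maturing oligodendrocytes had sums of 51.90 to 64.27 and 43.55 to 51.27 FPKM. The part of these cell types in the changes of the identity genes was not tested.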

How the data were processed

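RNA-seq was done on 12 samples of cultured mouse aNSPCs, 3 per group. The authors prepared libraries with a NEBNext Ultra kit, mapped reads to mm10 with Hisat2, kept uniquely mapped reads and counted them with FeatureCounts. They deposited FPKM values for each condition in a table of its own, and the program that computed them is not given in the sources used here. The authors' fold change (ratio), its log2 and their p-value and q-value columns were deposited beside them and were not used. FPKM values are rounded to 0.01 and hold no counts, so depth is unknown and no counting error is given.

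Genes with a mean of at least 0.1 FPKM over the libraries fitted were tested as log2(FPKM + 0.1) with limma 3.58.1 in R 4.3.3 (moderated variance with a trend, two-sided, Benjamini-Hochberg over all tested genes). A fold change on this scale understates the change of low genes, and folds in the text are ratios of mean FPKM. NAD+ was compared with Ctrl on the 6 libraries of each table, and conditions and the interaction on all 12. The second rule, after the study, was an unadjusted p under 0.05 with more than 2-fold, zeros raised to 1e-04. Single members also had an exact permutation test. Positions and overlaps come from GENCODE M21. From each further gene list at most the 4 called genes of largest change were named, and the profiles nearest to Gfap were the 3 with the smallest distance. The members and the gene lists were chosen with earlier results of these data known. The fit was tested on simulated data. Alternatives were other added numbers, filters and scalings, the replicate block, no moderation and each library left out. The replicate numbers come from the titles. Some genes of these lists are counted and not reported here by name.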

Additional observations from a re-analysis of the deposited data

How the results depend on the processing

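Rescaling changed the comparisons between conditions more than those within a condition. With median-ratio scaling, members lower in differentiated cells numbered 1 (Ctrl) and 0 (NAD+) in place of 2 and 2, and with quantile scaling 0 and 0. Log2 fold changes whose sign turned were, among Ctrl cells, Sox9 (0.19 median-ratio, 0.40 quantile), Nfia (0.01 median-ratio) and Glul (0.13 quantile), and among NAD+ cells Aldh1l1 (0.27 and 0.38), Glul (0.00 and 0.09) and S100b (0.03 quantile). Under quantile scaling the NAD+ effect in proliferating cells turned for Slc1a3 (0.08) and Glul (0.09), and the interaction of Glul was -0.04. None of these was called both as deposited and under that scaling. The interaction count of 0 became 1 (Sox9) with 1 added before log2, a minimum mean of 1 FPKM, median-ratio scaling or no moderation. Calls over all genes were then 0.713%, 0.758%, 0.455% and 0.513%, against 0.467% in the main fit. The interaction count was 5 without both proliferating libraries numbered 1 (2.07% of all genes), where Aldh1l1 among NAD+ cells was also at 0.16. The rule of more than 2-fold with an unadjusted p gave 1 member lower with NAD+ in proliferating cells (Gja1), 0 higher and 0 lower in differentiated cells, 4 higher and 0 lower between conditions in both Ctrl cells (all genes 16.4% and 14.6%) and NAD+ cells (14.0% and 19.4%), and 1 in the interaction (Gfap, all genes 4.19%).

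With 1 library left out, members higher with NAD+ in differentiated cells numbered 1 to 3 and those of the interaction 0 to 2. Signs turned only in members that were not called: Aldh1l1 between conditions (Ctrl -0.08 to 0.34, NAD+ -0.27 to 0.16) and in the interaction (-0.47 to 0.09), Glul with NAD+ (differentiation -0.04 to 0.11, proliferating -0.10 to 0.07) and in the interaction (-0.06 to 0.12), Nfia (NAD+ in differentiation -0.68 to 0.52, between conditions -0.47 to 0.18 and -0.21 to 0.99), and with NAD+ in proliferating cells Slc1a2 (-0.37 to 0.01) and Slc1a3 (-0.13 to 0.01).

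Whether replicate numbers pair the samples is not given by the labels. Same-numbered libraries correlated around their group means at 0.018 to 0.107 (proliferating) and 0.0291 to 0.0535 (differentiation), and every library correlated best with its own number under differentiation and not under proliferating conditions. Across conditions the same-numbered correlations were negative, at -0.0602 to -0.0287 (Ctrl) and -0.0515 to -0.00221 (NAD+). The block in the fits of all 12 libraries still joins equal numbers across conditions. With the replicate number as a block, Slc1a2 lost its call with NAD+ in differentiated cells (0.26, adjusted p = 0.0519), which left 3 members higher, calls over all genes went from 445 higher and 912 lower to 275 and 483, and no other call among the members changed. Of the other astrocyte genes, 3 were then higher and 9 lower in place of 7 and 14, with Vim and Rorb no longer called, and 0 in place of 2 were called in the interaction. Unknown depth and 3 libraries a group limit what small differences can show.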
